A study of Mus musculus with 10 samples.

Results

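Lymphoma cells of the pBIC mouse model were compared with germinal centre B cells of immunised mice without lymphoma, labelled YC. The comparison took the libraries by their group labels, 3 of pBIC and 4 of YC out of 10 in the series, and all genes that passed an expression filter, 17718 of 46316 in the count table. Each library held poly(A) RNA from B220+ B cells with a fluorescent reporter, sorted from C57BL/6 spleens. The labels give no age and do not say whether mice were pooled, so p-values measure the spread between these libraries, which may be technical. The pBIC genotype was p53F/F Blimp1F/F IKK2castopF/stopF Cg1Cre/+. Cre made from the Cg1 locus removes floxed exons of the p53 and Blimp1 genes and switches on an always active IKK2. The YC genotype was YFPstopF/+ Cg1Cre/+, the same Cre with a YFP reporter and none of the other 3 modified loci. The pBIC spleens came from moribund mice, all females. The YC mice, 3 females and 1 male, had been immunised with sheep red blood cells 20 days apart and were killed 10 days after the second injection. In the YC libraries some label fields carry the lymphoma wording, and the series description and the genotype were followed for them.

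A germinal centre is the site in which B cells that met antigen divide fast, mutate their antibody genes and are selected, under control of the repressor Bcl6. Cells leave it as memory B cells or as plasma cells, for which Blimp1 is required. Diffuse large B cell lymphoma of the activated B cell type is known for constant NF-kB activity and for loss of Blimp1, and IKK2 is the kinase that frees the canonical NF-kB factors. The Cg1 locus is transcribed when B cells respond to antigen with T cell help, so the reporter also marks progeny that have already left the germinal centre.

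The pBIC libraries shared the antibody segments they used most, and whether they hold 1 B cell clone was not tested. The heavy chain segment Ighv8-11 held 51.6 to 59.1% of heavy variable counts in the 3 pBIC libraries and 0.279 to 1.04% in YC, and segments of the Ighv8 family together held 87.4 to 98.1% against 1.45 to 5.53%. The kappa segment Igkv6-17 held 72.7 to 77.8% of kappa variable counts in pBIC and 0.957 to 2.51% in YC, and the Igkv6 family held 93.8 to 99.4% against 9.47 to 23.6%. Segments of a family are near-identical, so reads may have been split among them. The p-values below treat the pBIC libraries as independent samples.

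Library totals were 17.8 to 19.1 M counts in pBIC and 12.6 to 14.3 M in YC, and 3 counts, the limit that a count of 0 allows, stood for 0.161 to 0.170 and 0.212 to 0.246 CPM (counts per M, scaled by TMM). Correlations of log2 CPM across genes, which are not independent replicates, were 0.960 to 0.967 within pBIC, 0.968 to 0.979 within YC and 0.813 to 0.855 between them. Markers of T cells summed to 113 to 173 CPM in pBIC and 639 to 1236 CPM in YC, and those of NK cells to 27.2 to 73.3 and 58.1 to 175 CPM. Myeloid markers summed to 475 to 607 CPM and 440.0 to 688 CPM, with Cd163 and Cd209a at 0 in every pBIC library. Most of the pBIC sum came from Mpeg1 and Cd68, described below. Erythroid and platelet markers summed to 225 to 835 and 314 to 699 CPM. RNA was enriched with oligo-dT in both groups, per the labels, yet RNAs made without a poly(A) tail stood apart. The 63 replication-dependent histone genes summed to 176 to 273 CPM in pBIC and 829 to 1617 CPM in YC, and 5 small RNAs (Rn7sk, Rn7s1, Rn7s2, Rmrp and Rpph1) to 10.1 to 21.4 and 194 to 314 CPM. Calls also followed transcript length, over genes of at least 5 CPM without antibody and T cell receptor genes. Among the 2312 genes with the shortest transcripts, of 5 groups of equal size, 53.6% were called higher and 10.6% lower in pBIC (median log2 fold change 0.70), and among the longest 23.9% and 31.9% (median -0.10). In the group with the highest share of G and C bases, of 5 formed likewise, 21.3% were called higher and 43.7% lower (median -0.38). These calls are at an adjusted p under 0.05 (edgeR quasi-likelihood F test, Benjamini-Hochberg), and the part that RNA selection, length or base content had in any result was not tested.

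**Figure D1:**
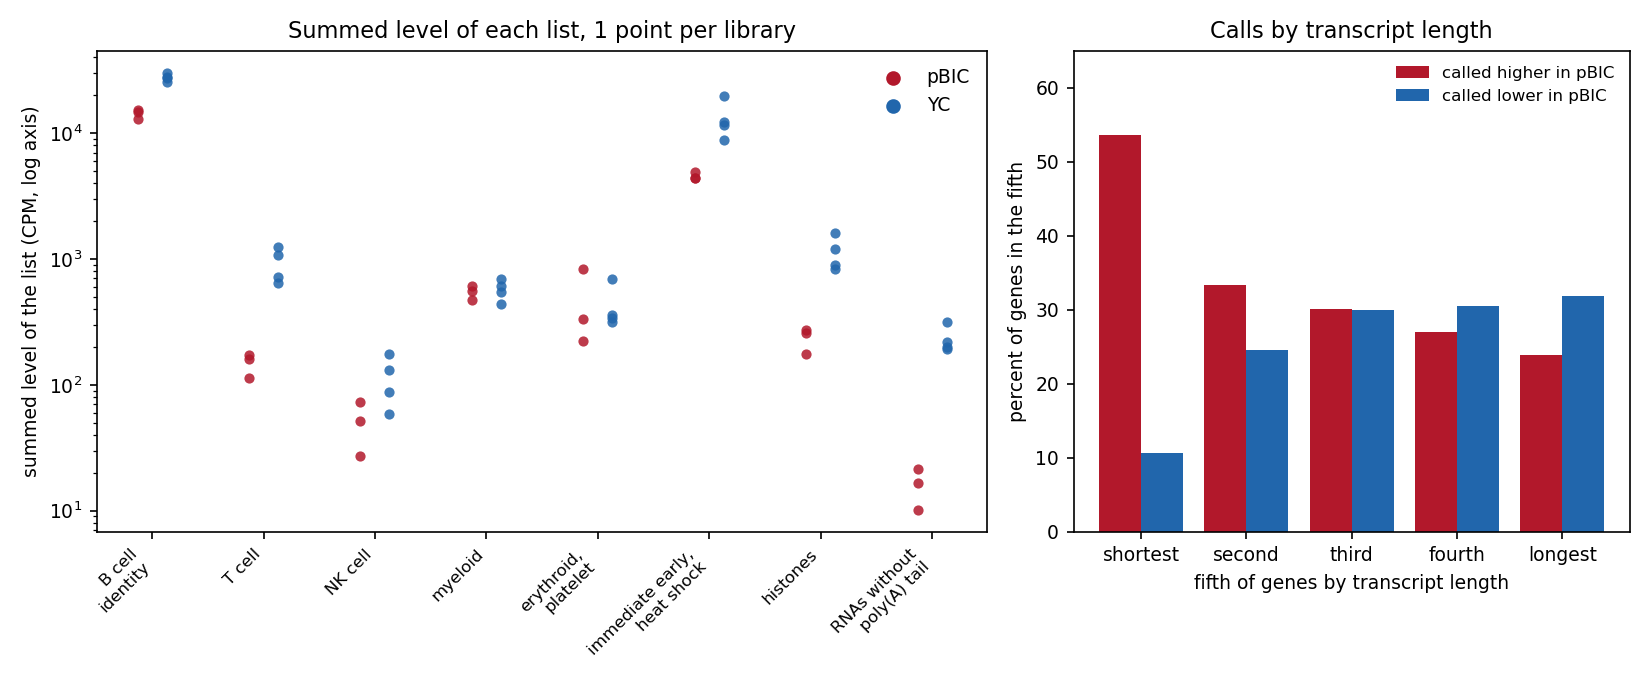
Left, summed level of marker and other gene lists in CPM on a log axis, 1 point per library (3 pBIC, 4 YC). Right, percent of genes called higher or lower in pBIC in 5 equal groups of genes by transcript length, with 53.6% higher among the shortest and 23.9% among the longest.

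The targets of the alleles were checked first. Trp53, which encodes p53, stood at 23.2, 18.3 and 53.3 CPM in pBIC replicates 1 to 3 and at 198, 194, 198 and 176 CPM in YC replicates 1 to 4 (log2 fold change -2.60 ± 0.32, adjusted p = 3.94e-05, -3.20 without pBIC replicate 3). Prdm1, which encodes Blimp1, stood at 5.63, 16.3 and 8.03 CPM and 30.1, 39.6, 16.8 and 28.3 CPM (-1.52 ± 0.45, adjusted p = 0.0134), with a value of -1.39 (adjusted p = 0.0532) without pBIC replicate 3. Ikbkb, which encodes IKK2, was 2.02-fold higher in pBIC, at 335, 223 and 298 CPM against 126, 166, 144 and 129 CPM (1.01 ± 0.17, adjusted p = 3.50e-04). The groups did not overlap in any of these 3 genes. Reads were counted over whole genes, so exons left on a deleted allele are included, and fewer cells with the RNA cannot be told apart from less RNA per cell, here or in any result below.

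Of 17718 genes tested, 9585 (54.1%) were called changed, 4682 higher in pBIC (26.4%) and 4903 lower (27.7%). Changes of at least 2-fold were more often falls: 2518 genes rose that far (14.2%) and 3782 fell (21.3%). In 9606 genes (54.2%) all libraries of one group lay above those of the other. The pBIC libraries were above in 4651 of these (26.3% of genes tested) and below in 4955 (28.0%). Because so many genes passed the test, each list of genes below is read against the share of all genes that rose (26.4%) or fell (27.7%). The median log2 fold change of all genes was 0.02, and list medians did not move at 2 decimals when genes without a count in a group were set to their bound.

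**Figure D2:**
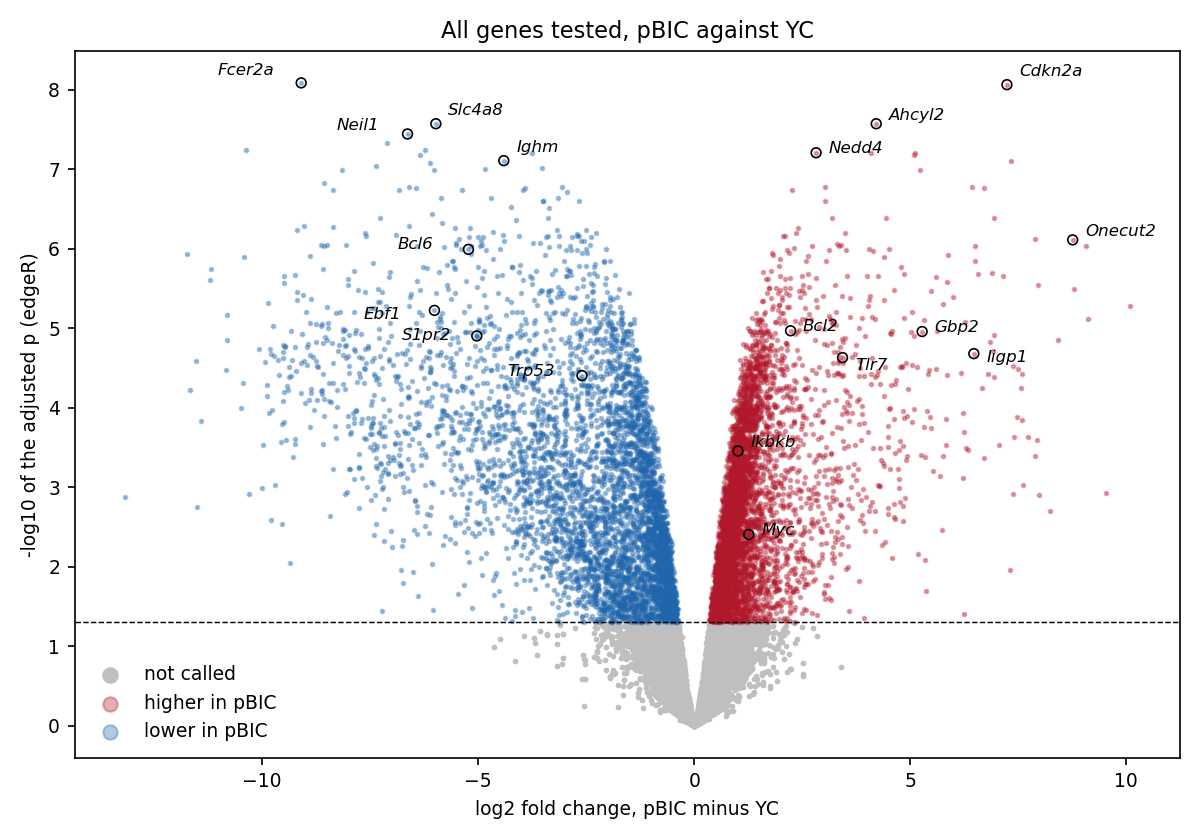
Each point is 1 of the 17718 genes tested, with the log2 fold change of pBIC minus YC on the x axis and -log10 of the adjusted p on the y axis (dashed line at 0.05). Genes called higher in pBIC are red and genes called lower blue, 18 genes described in the text are circled, and fitted folds of genes with almost no counts in a group depend on the prior count.

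The clearest rise was that of Cdkn2a, the locus of the cell cycle inhibitors p16INK4a and p19ARF, which stood at 135, 236 and 217 CPM in pBIC and 1.41, 0.737, 1.41 and 1.57 CPM in YC (7.24 ± 0.28, adjusted p = 8.62e-09). Its neighbour Cdkn2b, which encodes the related inhibitor p15, stood at 2.41, 3.56 and 2.62 CPM and 0.816, 0.491, 0.92 and 0.57 CPM (2.02 ± 0.39, adjusted p = 8.97e-04). Mtap, an enzyme of methionine salvage next to both, rose 8.15-fold (3.03 ± 0.18, adjusted p = 1.69e-07). All pBIC libraries lay above all YC libraries at the 3 genes of this locus, as was the case in 26.3% of all genes tested. Genes named for the size of their rise or adjusted p were chosen without overlap. Onecut2, a homeodomain transcription factor of liver and neurons, stood at 384, 314 and 221 CPM in pBIC against 0.371, 0.164, 0.566 and 1.64 CPM in YC (8.76 ± 0.56, adjusted p = 7.73e-07, 9.63 without YC replicate 4). Ebf3, a paralogue of the B cell factor Ebf1 with known roles outside the B lineage, stood at 66.5, 36.3 and 53.3 CPM against 0.0741, 0, 0 and 0.713 CPM (7.95 ± 0.62, adjusted p = 2.84e-06, 10.62 without YC replicate 4, where YC has 1 count left). Fzd6, a receptor for Wnt ligands, stood at 44.1, 13.5 and 43.9 CPM in pBIC and had 3 counts in all YC libraries together, a ratio of 613 (95% counting interval 209.6 to 2977). Scn2b, a sodium channel subunit, and Vmn2r1, a vomeronasal receptor gene, rose by 6.95 ± 0.45 and 7.33 ± 0.39 on the log2 scale. Among abundant genes, Ahcyl2, a relative of an enzyme of the methionine cycle, stood at 919, 612 and 759 CPM against 45.1, 44.1, 32.4 and 43.1 CPM (4.21 ± 0.19, adjusted p = 2.67e-08). Nedd4, a ubiquitin ligase, stood at 648, 572 and 555 CPM against 79.2, 78.5, 93.8 and 83.6 CPM (2.82 ± 0.14, adjusted p = 6.20e-08). Rdx, which links actin to the membrane, and Bmpr1a, a receptor for bone morphogenetic proteins, rose 4.81-fold and 8.11-fold, with libraries of Rdx that lay close together within each group (174 to 179 against 35.9 to 37.8 CPM). In all, 25 called genes averaged at least 5 CPM in pBIC with at most 3 counts in every YC library, and 2 of them had 0 counts in YC. One was Gabrr1, a GABA receptor subunit, at 1.66, 3.39 and 12 CPM in pBIC, at least 103-fold higher against a limit of 3 counts over the YC group, and at least 44.9-fold without pBIC replicate 3.

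In the other direction, 113 called genes averaged at least 5 CPM in YC with at most 3 counts in every pBIC library, and 23 had 0 counts in all of them. Lgr5, a receptor known from intestinal stem cells, had no count in pBIC and 4.34 to 8.7 CPM in YC, at least 130.4-fold lower against a limit of 3 counts over the group, and Vipr1, a receptor for a neuropeptide, was at least 132-fold lower. Without pBIC replicate 1 or 3 these limits were 86.2-fold for Lgr5 and 87.6-fold and 87.5-fold for Vipr1, since fewer reads were left. Emid1, a secreted protein gene, had 3 counts in pBIC in all and 76.9 to 88.1 CPM in YC, a ratio of 1511 (95% counting interval 517 to 7329), which was 999 without pBIC replicate 1 and 2994 without replicate 3. Fcer2a, which encodes the low-affinity IgE receptor CD23, stood at 0.965, 1.24 and 1.02 CPM in pBIC and 404, 629, 684 and 650.0 CPM in YC (-9.10 ± 0.33, adjusted p = 8.19e-09). Neil1, a DNA glycosylase of base excision repair, stood at 3.54, 3.56 and 5.89 CPM against 395, 383, 558 and 390.2 CPM (99.4-fold lower). Slc4a8, a bicarbonate transporter, stood at 1.61, 1.13 and 0.857 CPM against 63.2, 78.5, 87.4 and 75.6 CPM (-5.98 ± 0.26, adjusted p = 2.67e-08). No pBIC library came near the YC range in these genes, but genes named for the size of their fall or adjusted p were chosen without overlap. Trp53i11, named as a p53-inducible gene, fell 137-fold. Slpi, an inhibitor of secreted proteases, stood at 1.23, 1.13 and 0.482 CPM against 476, 452, 223 and 642 CPM (-8.88 ± 0.74, adjusted p = 4.32e-06). Hdac9, a histone deacetylase, stood at 0.536, 0.17 and 0.214 CPM against 65.1, 34.7, 51.6 and 57.3 CPM (-7.37 ± 0.40, adjusted p = 9.03e-08, -8.03 without pBIC replicate 1). Sipa1, which switches off the small GTPase Rap, stayed at 77.1, 66.9 and 62.8 CPM in pBIC against 879, 1144, 924 and 804 CPM (-3.77 ± 0.19, adjusted p = 6.20e-08).

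Germinal centre genes were lower in the lymphoma cells almost throughout. Of 35 tested members, 29 fell and 2 rose, with a median log2 fold change of -2.32. The groups did not overlap, with pBIC below, in 28, as was the case in 28.0% of all genes tested. Bcl6, the repressor that holds cells in the germinal centre state, stood at 9.49, 4.63 and 3.91 CPM in pBIC and 321, 176, 237 and 168 CPM in YC, 37.4-fold lower (-5.23 ± 0.38, adjusted p = 1.02e-06). Mef2b, an activator of Bcl6, stood at 0.697, 0.735 and 0.643 CPM against 9.71, 9.75, 11.6 and 10.8 CPM (-3.91 ± 0.39, adjusted p = 7.70e-06). Bach2, a partner of Bcl6 that holds back plasma cell fate, fell 20.0-fold (-4.32 ± 0.38, -5.03 without pBIC replicate 1). Foxo1, the factor of the dark zone in which the cells divide, stood at 36, 26.2 and 38.7 CPM against 325, 261, 278 and 266 CPM (-3.07 ± 0.18, adjusted p = 1.69e-07). Genes that keep the cells in place were also low. S1pr2, a receptor that confines B cells to the germinal centre, stood at 3.54, 3.0 and 9.26 CPM against 226, 163, 167 and 136 CPM (-5.03 ± 0.49, adjusted p = 1.25e-05, -5.72 without pBIC replicate 3). Rgs13, which dampens chemokine receptors, stood at 0.161, 0.113 and 0.0536 CPM against 130.3, 78.8, 135 and 113 CPM, 979-fold lower. Gcsam, a gene nearly restricted to germinal centre B cells, had 1 count in the 3 pBIC libraries and 151, 45.6, 81.8 and 77.1 CPM in YC, a ratio of 4941 (95% counting interval 886 to 195212). That ratio was 3266 and 3264 without pBIC replicate 1 or 3, and without replicate 2 no count was left and Gcsam was at least 1117-fold lower. Nuggc, a nuclear GTPase of germinal centre B cells, stood at 0.161, 0 and 0.107 CPM against 194, 163, 197 and 155 CPM. Klhl6 and Basp1, further members, fell 16.6-fold and 37.3-fold. In all of these genes every lymphoma library lay below every YC library.

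A few members of the germinal centre list did not fall. Irf8, a factor of these cells, stood at 363, 988 and 726 CPM against 721, 778, 697 and 607 CPM (log2 fold change -0.02 ± 0.28, adjusted p = 0.963). Ezh2, their histone methyltransferase, stood at 164, 162 and 64.6 CPM against 154, 134, 206 and 162 CPM (-0.33 ± 0.31, adjusted p = 0.389). Both overlapped between groups and were not called, with pBIC replicate 1 lowest in Irf8 and replicate 3 in Ezh2. Cd38 is also on the list, although its product is low on mouse germinal centre cells and high on naive and memory cells. Cd38 rose to 154, 130.1 and 69.7 CPM from 46.6, 62.2, 33.7 and 21.6 CPM (1.53 ± 0.36, adjusted p = 0.00418). Cd38 was not called when each lymphoma group was summed to 1 library (1.57). Of 30 genes of hypermutation and class switch, 6 fell, 4 rose and 20 were not called (median 0.21), with 7 rising without pBIC replicate 3 and 3 falling when each lymphoma group was summed. Hmces, which shields abasic sites in DNA, stood at 7.4, 9.67 and 5.09 CPM against 295, 254, 331 and 256 CPM (-5.27 ± 0.58, adjusted p = 2.82e-05), while Apex1, an endonuclease at such sites, rose 2.2-fold and Xrcc5, a Ku subunit of end joining, 1.94-fold.

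Human diffuse large B cell lymphoma is divided into a germinal centre (GCB) and an activated B cell (ABC) type, and mouse orthologues of genes known from each were read in the same way. Of 19 tested GCB genes 15 fell and 2 rose (median -1.72), Bcl6, S1pr2, Rgs13 and Neil1 among those that fell. Dennd3 and Itpkb, an activator of Rab GTPases and an inositol kinase, fell 28.8-fold and 8.5-fold. Of 31 ABC genes 8 rose and 9 fell (25.8% and 29.0%, median -0.04), near the shares of all genes tested (26.4% and 27.7%). Of the ABC genes 4 rose without YC replicate 1 and 5 without YC replicate 3 or 4, and the median was 0.14 without pBIC replicate 3. Etv6, a repressor of the ETS family, stood at 166, 163 and 207 CPM in pBIC and 50.5, 55.3, 56.5 and 56.5 CPM in YC (1.71 ± 0.15, adjusted p = 2.38e-06), and Bspry and Bcl2 rose 5.41-fold and 4.69-fold. Irf4, a factor on which human ABC lines depend, was lower at 230.3, 87.2 and 156 CPM against 213, 430.4, 334 and 347 CPM (-1.07 ± 0.30, adjusted p = 0.0091), although pBIC replicate 1 lay above YC replicate 1, and Foxp1 fell 1.55-fold.

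**Figure D3:**
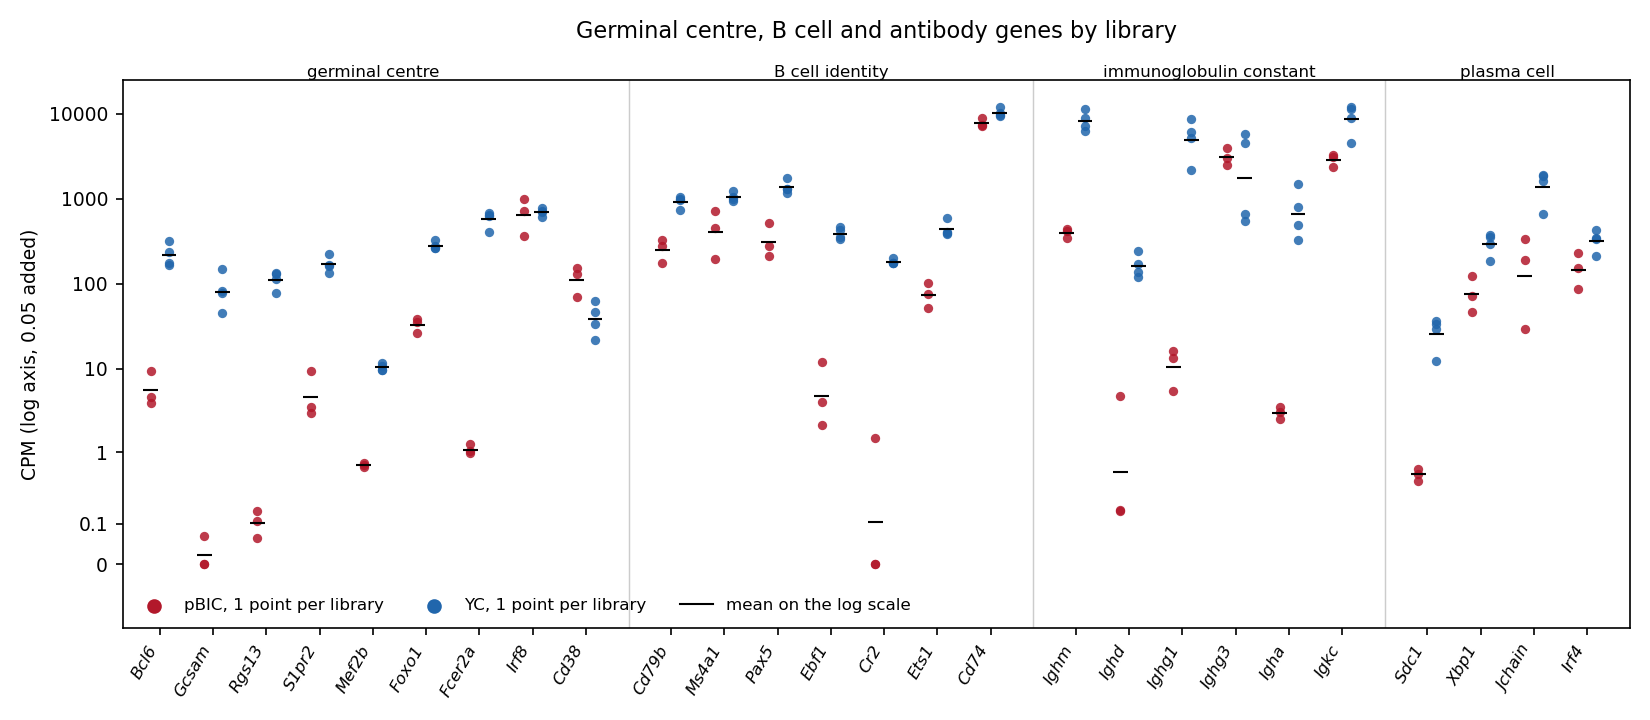
CPM of 26 germinal centre, B cell identity, immunoglobulin constant and plasma cell genes on a log axis with 0.05 added, 1 point per library (3 pBIC in red, 4 YC in blue) and a bar at the mean of the log values. Most pBIC points lie below the YC points, Cd38 lies above, and Irf8, Irf4 and Ighg3 are among those that overlap.

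B cell markers were plainly present in the lymphoma cells, at reduced levels. None of 28 genes of B cell identity rose and 22 fell (median -1.41), and the list summed to 12988 to 15270 CPM in pBIC and 25428 to 30194 CPM in YC. Cd74 alone, described below, held 7156 to 8852 CPM of the sum in pBIC and 9563 to 12041 CPM in YC. Cd79b, a signalling chain of the B cell receptor, stood at 327, 279 and 174 CPM against 1042, 984, 963 and 745 CPM (-1.84 ± 0.23, adjusted p = 3.45e-05). Pax5, the factor that commits cells to the B lineage, stood at 523, 215 and 276 CPM against 1306, 1744, 1299.7 and 1167 CPM (-2.03 ± 0.28, adjusted p = 9.51e-05). A stronger fall was seen for Ebf1, its partner in early B cells, which stood at 12.1, 4.07 and 2.14 CPM in pBIC and 339, 461, 425 and 352 CPM in YC (-6.01 ± 0.52, adjusted p = 5.96e-06, -6.99 without pBIC replicate 1). Cr2, the complement receptor CD21, had counts in pBIC replicate 1 alone (1.5, 0 and 0 CPM) against 178, 175, 200.5 and 175 CPM in YC (-8.47 ± 0.80, adjusted p = 1.00e-05, with no count left without pBIC replicate 1, and -7.85 and -7.88 without replicate 2 or 3). Ets1, a factor that restrains plasma cell differentiation, and Spi1, which encodes PU.1, fell 5.79-fold and 2.5-fold. Among members not called, Cd74, the invariant chain, stood at 7156 to 8852 CPM against 9563 to 12041 CPM (-0.40 ± 0.26, adjusted p = 0.207), and Tcf3, which encodes E2A, at 247 to 358 CPM against 285 to 344 CPM (-0.14 ± 0.17, adjusted p = 0.478).

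Genes of naive and follicular B cells fell in 18 of 23 cases and rose in 3 (median -1.76). Satb1, a chromatin organiser of resting lymphocytes, stood at 1.29, 0.452 and 0.643 CPM against 91.4, 73.1, 61.5 and 81.1 CPM (-6.58 ± 0.67, adjusted p = 1.60e-05), and Cd55, which protects cells from complement, had a log2 fold change of -5.03 ± 0.50 (-5.95 without pBIC replicate 1). Klf2, a quiescence factor, stood at 183, 84.6 and 305 CPM against 665, 1613, 603 and 890.2 CPM (-2.30 ± 0.48, adjusted p = 0.00195), and was not called when each lymphoma group was summed (-2.24). Satb1 and Tcf7, another member, are also high in T cells, whose markers summed to a lower level in pBIC, and the part of T cells in these falls was not tested. Memory B cell genes were split, with 8 of 19 higher and 8 lower. Zbtb32, a repressor of memory B cells, stood at 176, 157 and 82.6 CPM against 19.5, 37.6, 17.6 and 14.8 CPM (2.63 ± 0.50, adjusted p = 0.00106). Bhlhe41, a regulator of B-1 cells, stood at 208, 174 and 346 CPM against 45.9, 82, 36.1 and 40.1 CPM (2.25 ± 0.31, adjusted p = 1.00e-04). Ccr6, a chemokine receptor of memory precursors, fell to 1.29, 0.226 and 1.18 CPM from 49.5, 93.9, 43.2 and 38.2 CPM (-5.95 ± 0.56, adjusted p = 8.32e-06), and Cd27, a costimulatory receptor of T and B cells, to 1.02, 1.3 and 0.589 CPM from 14.6, 6.06, 3.82 and 11.2 CPM.

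Signalling from the B cell receptor showed the same direction, with 22 of 36 genes lower and 1 higher (median -1.07). Dok3, an adaptor that inhibits the receptor, stood at 31.6, 12.6 and 24 CPM against 407, 572, 514 and 451 CPM (-4.41 ± 0.31, adjusted p = 6.74e-07). Activators fell as well: Pik3cd, the PI3-kinase subunit of lymphocytes, 5.04-fold, Rasgrp3, which loads Ras, 4.4-fold and Syk, the first kinase of the cascade, 3.74-fold. The member that rose was Ptpn22, a phosphatase that dampens antigen receptors, at 156, 75.6 and 102 CPM against 48.6, 59.7, 29.8 and 45.4 CPM (1.28 ± 0.32, adjusted p = 0.00479). Blnk, the scaffold of the cascade, was not called (402 to 426 against 458 to 532 CPM, -0.25 ± 0.15, adjusted p = 0.19).

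Immunoglobulin genes held 0.880 to 1.11% of counts in pBIC and 2.20 to 5.77% in YC. Of 12 constant genes, 7 fell and 2 rose. Ighm, the constant gene of IgM, stood at 441, 344 and 422 CPM in pBIC and 9020.0, 11563, 7249.8 and 6353 CPM in YC (-4.41 ± 0.23, adjusted p = 7.79e-08). Ighg1, that of IgG1, stood at 16.2, 5.37 and 13.3 CPM against 5211, 6196, 2172 and 8701 CPM (-8.90 ± 0.62, adjusted p = 1.24e-06). Igha, that of IgA, fell with a log2 fold change of -8.02 ± 0.63, Ighg2b with -5.96 ± 0.59 and the kappa constant gene Igkc with -1.68 ± 0.29, the last not called when each lymphoma group was summed (-1.63). In pBIC replicates 2 and 3 almost no counts were left of Ighd, the constant gene of IgD (4.77, 0.17 and 0.161 CPM against 137, 242, 174 and 121 CPM, -6.62 ± 0.99, adjusted p = 2.10e-04, -9.93 without pBIC replicate 1 and -6.03 without pBIC replicate 2), and Ighg2c was likewise highest in replicate 1 (39.1, 1.58 and 2.14 CPM against 2972, 2479, 849.7 and 1955 CPM, -7.17 ± 1.13, adjusted p = 3.02e-04, -10.11 without pBIC replicate 1 and -6.58 without pBIC replicate 2). Ighg3, the constant gene of IgG3, was the most abundant constant gene of the heavy chain in each pBIC library, at 2994, 2513 and 4009.6 CPM, and it varied among YC libraries, at 4582, 5749.5, 554 and 662 CPM (0.14 ± 0.66, adjusted p = 0.875). Ighe, that of IgE, stood at 155, 429 and 136 CPM against 18.1, 24.9, 76.1 and 168 CPM (1.74 ± 0.68, adjusted p = 0.0479), with overlapping groups. Ighe was not called without any 1 of pBIC replicates 1 to 3 or YC replicates 1 to 3 (1.08 to 2.02, adjusted p = 0.0613 to 0.283), and was 2.58 without YC replicate 4. The lambda gene Iglc2 rose slightly (0.76 ± 0.18, adjusted p = 0.00304), and Iglc1 (0.20 ± 0.32, adjusted p = 0.609) and Iglc3 (0.31 ± 0.19, adjusted p = 0.18) were not called. Reads of near-identical constant genes may have been split.

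Plasma cell and secretory genes were lower on balance, 17 of 34 falling and 5 rising (median -0.64), with 8 rising without pBIC replicate 3. Sdc1, which encodes the plasma cell surface protein CD138, stood at 0.536, 0.622 and 0.428 CPM against 36.8, 33.7, 12.4 and 29.7 CPM (-5.72 ± 0.47, adjusted p = 1.61e-06). Xbp1, the factor of the secretory programme, stood at 72.6, 125 and 47.1 CPM against 351, 377, 188 and 293 CPM (-1.89 ± 0.33, adjusted p = 5.02e-04). Jchain, which joins IgM and IgA subunits, varied within pBIC, at 29.4, 337 and 191 CPM against 1897, 1847, 666 and 1629 CPM (-3.02 ± 0.69, adjusted p = 0.00334, -3.72 without pBIC replicate 2). Eaf2, a transcription elongation factor of both germinal centre and plasma cells, fell 7.15-fold and Dnajb9, a chaperone of the endoplasmic reticulum, 4.04-fold. Ssr4 and Sec61a1, by which any cell moves proteins into the endoplasmic reticulum, rose by 0.81 ± 0.21 and 0.57 ± 0.13 on the log2 scale. All genes named here were apart between the groups, and loss of Blimp1 and a different share of plasma cells in the gate cannot be told apart.

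Interferon gamma response genes formed the list with the highest median, 1.90, of those read. Interferon gamma is a cytokine of T and NK cells that acts on genes with a gamma-activated sequence and, through IRF1, on genes with an interferon-stimulated response element. Of 31 members 26 rose and 2 fell. In 20 every pBIC library lay above every YC library, as was the case in 26.3% of all genes tested. The rise was uneven: pBIC replicate 3 had the lowest level of the 3 lymphoma libraries in 24 of 31 genes, and in 5611 of all 17718.

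Promoters of 4 members are shown here because the levels of these genes are described next and their sequences hold the named motifs. They are the 250 bases before the transcription start in RefSeq (GRCm38.p6), 5′ to 3′ on the gene's strand, with matches in capitals. The motifs searched on both strands were TTCNNNGAA (gamma-activated sequence) and 2 copies of GAAA with 2 bases between them (interferon-stimulated response element), and matches of the 2 motifs can overlap. Irf1 (chr11:53769764-53770013, + strand) has 1 gamma-activated sequence, first base at -90 from the start. Igtp (chr11:58199306-58199555, + strand) has 1 of each, at -45 and -34. Gbp2 (chr3:142620413-142620662, + strand) has 1 response element at -59, and Gbp3 (chr3:142559794-142560043, + strand) has 2 that overlap, at -45 and -39.
Irf1: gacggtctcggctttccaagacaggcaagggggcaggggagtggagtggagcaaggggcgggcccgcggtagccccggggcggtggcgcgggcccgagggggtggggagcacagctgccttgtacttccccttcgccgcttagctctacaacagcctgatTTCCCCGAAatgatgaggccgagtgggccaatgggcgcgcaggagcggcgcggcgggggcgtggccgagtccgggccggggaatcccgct
Gbp2: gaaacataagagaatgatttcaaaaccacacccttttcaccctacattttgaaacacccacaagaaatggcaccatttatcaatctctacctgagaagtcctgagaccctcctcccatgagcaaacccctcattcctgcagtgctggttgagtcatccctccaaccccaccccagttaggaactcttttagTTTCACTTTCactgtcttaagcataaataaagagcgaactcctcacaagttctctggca
Igtp: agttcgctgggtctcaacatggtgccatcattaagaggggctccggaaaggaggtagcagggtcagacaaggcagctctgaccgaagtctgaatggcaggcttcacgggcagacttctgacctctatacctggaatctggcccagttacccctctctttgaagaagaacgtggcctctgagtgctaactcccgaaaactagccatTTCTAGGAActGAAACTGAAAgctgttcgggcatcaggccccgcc
Gbp3: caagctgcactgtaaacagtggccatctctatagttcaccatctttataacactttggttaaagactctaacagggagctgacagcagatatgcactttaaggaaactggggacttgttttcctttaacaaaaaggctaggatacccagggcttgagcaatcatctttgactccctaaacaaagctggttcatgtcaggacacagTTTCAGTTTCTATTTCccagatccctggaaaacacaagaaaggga

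A gamma-activated sequence was found in the promoters of 9 of 18 members that rose and had an entry, against 8.13% of all 27025 genes with an entry and 7.20% of the tested ones. An interferon-stimulated response element was found in 10 of the 18 (55.6%), against 3.46% and 3.38%. The list was assembled from known interferon gamma targets, and a match describes letters in this window and not a site in use.

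Irf1, the transcription factor that relays the signal, stood at 256, 276 and 226 CPM in pBIC and 126, 129, 100.4 and 125 CPM in YC (1.07 ± 0.15, adjusted p = 6.88e-05). Ifngr2, a chain of the receptor, rose slightly (66.1 to 73.1 against 46.5 to 63.1 CPM, 0.46 ± 0.16, adjusted p = 0.0283). Ifngr2 was not called without pBIC replicate 3 or YC replicate 1, 3 or 4 (0.40 to 0.43, adjusted p = 0.0644 to 0.0913). Gbp2, a guanylate-binding protein that attacks pathogens inside cells, stood at 1098, 874 and 178 CPM against 21.8, 16.8, 15.4 and 20.1 CPM (5.27 ± 0.51, adjusted p = 1.10e-05). Its relatives Gbp3 and Gbp4 stood at 259.9, 273 and 111 and 334, 220.1 and 146 CPM in pBIC against 17 to 21 and 37.4 to 58.1 CPM (3.53 ± 0.29, adjusted p = 2.21e-06 and 2.30 ± 0.30, adjusted p = 5.62e-05). In each of the 3, pBIC replicate 3 was the lowest lymphoma library and still above all YC libraries. The immunity-related GTPases Igtp and Irgm1, which act on the membranes around pathogens, rose 4.15-fold and 3.81-fold, and Iigp1 of the same family stood at 236, 233 and 56.8 CPM against 1.85, 1.88, 0.778 and 3.35 CPM (6.47 ± 0.68, adjusted p = 2.09e-05). Serpina3g, an intracellular protease inhibitor, stood at 343, 369 and 169.7 CPM against 37.9, 52.4, 28.9 and 30.5 CPM (2.97 ± 0.27, adjusted p = 3.92e-06). Cxcl9, a chemokine that draws T cells, was high in the first lymphoma libraries and within the YC range in the last, at 42, 85.6 and 4.66 CPM against 7.12, 1.56, 1.06 and 2.57 CPM (3.84 ± 0.84, adjusted p = 0.00261, 2.98 without pBIC replicate 2 and 4.63 without YC replicate 1). Gbp2b, a relative of Gbp2, was uneven too, at 107, 123 and 7.66 CPM against 0.148, 0.246, 0.566 and 0.642 CPM (7.58 ± 0.88, adjusted p = 3.72e-05). Genes of near-identical families such as the Gbp, Tgtp and Serpina3 genes may have shared reads. Against this direction went Ifngr1, the receptor chain that binds the cytokine, at 29.8, 31.1 and 24.2 CPM against 86.3, 82, 94.8 and 95.6 CPM (-1.66 ± 0.17, adjusted p = 7.17e-06). Ifng, the gene of the cytokine, is read below with the other cytokines. T cell markers summed to lower levels in pBIC than in YC. The sums of NK cell markers overlapped between the groups, as given above, although 10 of 13 NK cell markers fell and 0 rose (median -4.13).

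**Figure D4:**
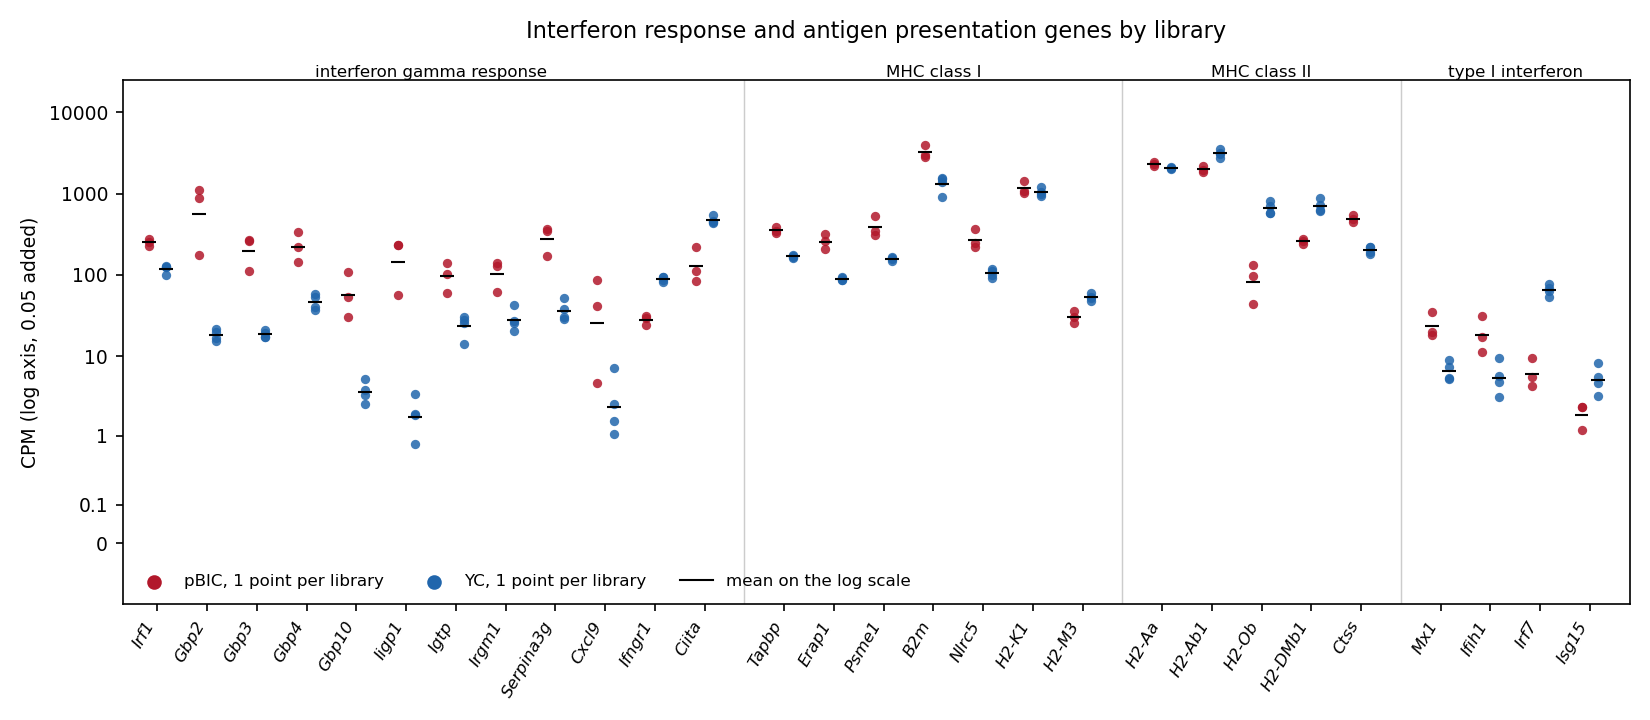
CPM of 28 interferon response and antigen presentation genes on a log axis with 0.05 added, 1 point per library (3 pBIC in red, 4 YC in blue) and a bar at the mean of the log values. Guanylate-binding proteins and related GTPases lie higher in pBIC with the third library lowest, Ifngr1 and Ciita lie lower, and H2-K1 overlaps.

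Type I interferon response genes did not move together, with 11 of 39 higher and 14 lower (28.2% and 35.9%, beside 26.4% and 27.7% of all genes tested, median -0.19). The median of these genes was -0.86 without pBIC replicate 1 and 0.09 without pBIC replicate 2, and 11 to 18 were lower with any 1 library left out. Mx1, an antiviral GTPase, stood at 19.7, 18.4 and 35 CPM against 5.26, 9.01, 5.31 and 7.34 CPM (1.86 ± 0.39, adjusted p = 0.00156). Ifih1, a sensor of viral RNA, rose 3.44-fold. Irf7, the factor that amplifies this response, stood at 9.38, 5.54 and 4.23 CPM against 53.1, 68.6, 63 and 77 CPM (-3.36 ± 0.63, adjusted p = 9.87e-04). Isg15, a ubiquitin-like protein, fell 2.78-fold, although it was not called when each lymphoma group was summed (-1.43). No library of one group reached into the other in these 4 genes.

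The MHC class I pathway, which displays peptides from inside the cell to CD8 T cells, rose in 13 of 23 genes and fell in 1 (median 0.80). Nlrc5, the transactivator of class I genes, stood at 371, 219 and 247 CPM against 99.6, 119, 91 and 111 CPM (1.41 ± 0.21, adjusted p = 1.42e-04). Genes that make and load peptides were higher: Psme1, a proteasome activator, rose 2.49-fold, Erap1, which trims peptides, 2.91-fold (1.54 ± 0.16, adjusted p = 7.70e-06) and Tapbp, which holds class I at the peptide transporter, 2.11-fold (1.08 ± 0.14, adjusted p = 4.09e-05). B2m, the light chain of class I molecules, stood at 2827, 3982 and 2962 CPM against 1503, 1571, 922 and 1389 CPM (1.27 ± 0.20, adjusted p = 2.22e-04). The classical heavy chains were not called, with H2-K1 at 1030.0 to 1448 CPM against 938 to 1211 CPM (0.18 ± 0.17, adjusted p = 0.381) and H2-D1 at 967 to 1223 CPM against 1046 to 1431 CPM (-0.08 ± 0.19, adjusted p = 0.74), and their reads may be shared with related H2 genes. H2-M3, which presents bacterial peptides, was lower (-0.81 ± 0.17, adjusted p = 0.00165).

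MHC class II, which shows peptides to CD4 T cells, was 4 of 20 higher and 8 lower. Ciita, its master transactivator, stood at 220.0, 112 and 84.8 CPM against 452, 551, 459 and 435 CPM (-1.77 ± 0.27, adjusted p = 1.71e-04). The chains themselves moved less: H2-Aa was not called (2217 to 2485 against 2039 to 2119.9 CPM, 0.17 ± 0.14, adjusted p = 0.339), and H2-Ab1 fell 1.56-fold. H2-Ob and H2-Oa, which limit peptide exchange, fell 7.35-fold and 2.43-fold, and Marchf1, a ubiquitin ligase that removes class II from the surface, stood at 12.4, 3.22 and 2.09 CPM against 146, 120.3, 85.1 and 72.9 CPM (-4.16 ± 0.57, adjusted p = 1.17e-04, -5.32 without pBIC replicate 1). Ctss, a protease that clears the invariant chain, rose to 449, 546 and 485 CPM from 221, 221, 183 and 194 CPM (1.27 ± 0.15, adjusted p = 2.62e-05).

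NF-kB genes were read next, since pBIC carries an active IKK2. Of 29 subunits, inhibitors and kinases 3 rose and 9 fell, and 17 were not called, with 5 rising without pBIC replicate 2. Chuk, which encodes IKK1, rose with Ikbkb (88.2 to 129 against 63.7 to 74.4 CPM, 0.67 ± 0.16, adjusted p = 0.00353). Birc3, a ubiquitin ligase of the pathway, was the other that rose (0.56 ± 0.17, adjusted p = 0.0138, 0.38 (adjusted p = 0.0612) without pBIC replicate 1 and 0.46 (adjusted p = 0.0552) without YC replicate 1). Rel, the c-Rel subunit of germinal centre B cells, stood at 119.7, 57.4 and 70.4 CPM against 209, 319, 564 and 498 CPM (-2.27 ± 0.36, adjusted p = 3.06e-04), and was not called when each lymphoma group was summed (-2.21). Every pBIC library had less Rel than every YC library. Map3k14, the kinase NIK of the alternative pathway, fell 3.81-fold, and Nfkb2, the subunit NIK acts on, stood at 143, 147 and 131 CPM against 248, 337, 244 and 245 CPM (-0.94 ± 0.16, adjusted p = 2.95e-04). Nfkbia, an inhibitor that NF-kB itself induces, was not called (299 to 391 against 331 to 468 CPM, -0.18 ± 0.22, adjusted p = 0.525).

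Of 49 tested NF-kB targets, 8 rose and 23 fell (median -0.64), with 5 rising without pBIC replicate 1 or YC replicate 3. Bcl2, which blocks cell death, stood at 227, 209 and 103 CPM in pBIC and 35.7, 45.9, 32.9 and 38.8 CPM in YC (2.23 ± 0.24, adjusted p = 1.07e-05). Myc, a transcription factor that drives growth, stood at 683, 688 and 855 CPM against 224, 456, 259 and 299 CPM (1.26 ± 0.30, adjusted p = 0.00394). Sod2, a mitochondrial superoxide dismutase, rose 1.9-fold, and in these 3 genes every pBIC library lay above every YC library. Cd274, which encodes PD-L1, was high in pBIC replicates 1 and 3 only, at 269, 72.3 and 247 CPM against 39.7, 94.7, 70.5 and 101 CPM (1.36 ± 0.43, adjusted p = 0.0192), and its value was 1.06 (adjusted p = 0.0956) without pBIC replicate 1, 1.16 (adjusted p = 0.094) without pBIC replicate 3 and 1.32 (adjusted p = 0.0573) without YC replicate 3. Among those that fell, Bcl2l1, which encodes the survival protein BCL-xL, stood at 6.27, 6.78 and 8.46 CPM against 44, 48.4, 45.6 and 49.1 CPM (-2.70 ± 0.19, adjusted p = 6.56e-07). Gadd45b, a stress gene, stood at 15.6, 11 and 12.3 CPM against 145, 157, 189 and 148 CPM (-3.62 ± 0.45, adjusted p = 5.79e-05). Ccl22, a chemokine that draws T helper cells, stood at 1.02, 1.02 and 0.91 CPM against 22.2, 52.4, 35.7 and 74.4 CPM (-5.54 ± 0.49, adjusted p = 3.55e-06). Lta, lymphotoxin alpha, stood at 20.2, 38.8 and 9.53 CPM against 95.4, 90.8, 82.9 and 62 CPM (-1.86 ± 0.40, adjusted p = 0.00235). The κB motif searched was GGGRNNYYCC, with R for A or G and Y for C or T. It stood in the promoters of 2 of 7 targets that rose and 5 of 18 that fell and had an entry (28.6% and 27.8%). Of all 36 targets with an entry 12 held it (33.3%), against 10.4% of tested genes. The list was assembled from known NF-kB targets, and a match describes letters and not a site in use.

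p53 targets fell more often than they rose, 15 against 9 of 35, with 11 not called (median -0.31). Mdm2, the ubiquitin ligase of p53, stood at 57.1, 60.8 and 64.3 CPM against 89.1, 100.5, 148 and 125 CPM (-0.93 ± 0.18, adjusted p = 8.90e-04). Cdkn1a, which encodes the inhibitor p21, stood at 0.536, 3.05 and 0.75 CPM against 3.86, 4.91, 5.66 and 8.91 CPM (-2.01 ± 0.59, adjusted p = 0.0124, -3.11 without pBIC replicate 2). Plk2, a kinase of the stress response, had 3 counts in pBIC in all and 33.1 to 125 CPM in YC, a ratio of 1593 (95% counting interval 545 to 7727), and of 3159 without pBIC replicate 1. Psrc1, a spindle protein, and Bbc3, the death protein PUMA, fell 57.6-fold and 2.64-fold. Members that rose included Rps27l, at 27.4, 52.8 and 44.1 CPM against 17.2, 15.2, 16.3 and 15.3 CPM (1.37 ± 0.21, adjusted p = 1.72e-04), and Zmat3, an RNA-binding protein (0.88 ± 0.21). Pvt1, a long RNA beside Myc, stood at 57.7, 75.8 and 55.1 CPM against 10.8, 15.9, 17.5 and 16.5 CPM (2.05 ± 0.20, adjusted p = 6.41e-06). Among 16 BCL2 family genes 3 rose and 8 fell. Besides Bcl2 and Bcl2l1, Bcl2l11, which encodes the death protein BIM, rose to 89.9, 118 and 282 CPM from 72, 39.5, 59.8 and 61.7 CPM (1.49 ± 0.33, adjusted p = 0.00276, 0.84 without pBIC replicate 3), Bmf, another death protein, fell 4.26-fold, and Mcl1 was not called (419 to 559.9 against 440.0 to 472 CPM, 0.13 ± 0.16, adjusted p = 0.497).

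Genes that open the cell cycle went in both directions within the same families. Of 24 G1 genes 8 rose and 6 fell, Cdkn2a and Cdkn2b among those that rose. Ccnd1, the D-type cyclin that B cells hardly use, stood at 71.4, 36.9 and 32.9 CPM against 8.53, 4.01, 2.55 and 5.28 CPM (3.21 ± 0.36, adjusted p = 2.70e-05). Ccnd3, the one of the germinal centre, stood at 37.6, 50.5 and 39.4 CPM against 245, 157, 194 and 149.8 CPM (-2.13 ± 0.20, adjusted p = 5.01e-06). Their partner kinases Cdk4 and Cdk6 rose 2.0-fold and 2.08-fold. The inhibitors Cdkn2c and Cdkn2d, of the same family as the proteins of Cdkn2a and Cdkn2b, fell to 3.7, 2.83 and 2.62 CPM from 40.8, 22.8, 22.2 and 25.7 CPM (-3.19 ± 0.30, adjusted p = 3.99e-06) and to 4.29, 5.82 and 5.41 CPM from 31.5, 30.8, 23.8 and 23 CPM (-2.40 ± 0.23, adjusted p = 6.15e-06). Of 38 genes of mitosis, 30 were not called, 7 fell and 1 rose (median -0.05). Foxm1, the factor that drives these genes, stood at 62.4, 54.8 and 59.8 CPM against 169, 155, 181 and 158 CPM (-1.49 ± 0.15, adjusted p = 8.86e-06), while Plk1, the main mitotic kinase, was not called (61.6 to 91.5 against 81.4 to 102 CPM, -0.18 ± 0.22, adjusted p = 0.518). Replication genes fell in 18 of 41 cases and rose in 2 (median -0.47), with log2 fold changes of -1.88 ± 0.18 for Pold1, a DNA polymerase subunit, and -1.34 ± 0.19 for E2f1, the S phase factor.

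Of 39 genes of the MYC network and ribosome biogenesis, 27 rose and 3 fell (median 0.79). Npm1 and Ncl, nucleolar proteins of ribosome assembly, stood at 1411, 2183 and 1363 and 2539, 3069 and 2444 CPM in pBIC against 374 to 475 and 921 to 1243 CPM (1.95 ± 0.19, adjusted p = 5.09e-06 and 1.31 ± 0.15, adjusted p = 2.25e-05). Wdr12, an assembly factor, rose 4.32-fold. Within the network, Mxi1, an antagonist of MYC, rose 5.41-fold, and the antagonists Mxd3 and Mnt fell 9.35-fold and 2.52-fold. Cytosolic ribosomal protein genes rose in 70 of 80 cases and fell in 0 (median 0.90). In 79 of them pBIC replicate 1 was the lowest lymphoma library, as in 6366 of all 17718 genes tested. Rplp0, of the large subunit, stood at 2757, 3925 and 3463 CPM against 1339, 1165, 1309 and 1239 CPM (1.42 ± 0.14, adjusted p = 7.91e-06). Nuclear genes of the respiratory chain rose in 37 of 43 cases and fell in 0 (median 0.81), Sdhd, of complex II, with 111, 195 and 204 CPM against 45.5, 44.1, 54 and 51.6 CPM (1.80 ± 0.20, adjusted p = 1.30e-05) and Cox4i1, of complex IV, 2.73-fold. The median transcript was 1059 nt long for ribosomal protein genes and 1232 nt for respiratory chain genes, both within the group of shortest transcripts (up to 1407 nt), whose median was 0.70 as given above. Biogenesis genes had a median of 2864 nt and interferon gamma response genes of 3121 nt, both within a length group whose median was 0.01. Their median shares of G and C bases, 50.9% and 46.8%, lay in groups by base content with medians of 0.26 and 0.31.

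Of 37 glycolysis and hypoxia genes 23 rose and 6 fell (median 0.72). Pdk1, which keeps pyruvate out of mitochondria, stood at 144, 147 and 199 CPM against 28.2, 31.9, 31.4 and 31.3 CPM (2.41 ± 0.17, adjusted p = 5.49e-07), and the enzymes Pkm and Eno1 rose 2.49-fold and 3.29-fold. Ndrg1 and Egln3, known as hypoxia-induced genes, fell: Ndrg1 stood at 0.536, 0.339 and 0.214 CPM against 12.7, 8.76, 9.41 and 12.1 CPM (-4.85 ± 0.41, adjusted p = 1.89e-06) and Egln3 at 0, 0.17 and 0.321 CPM against 1.48, 1.39, 0.92 and 2.5 CPM (-3.21 ± 0.79, adjusted p = 0.00422, -4.12 without pBIC replicate 3). The groups were apart in all of these genes. Cholesterol and fatty acid synthesis genes fell in 16 of 31 cases and rose in 6, and 10 fell without pBIC replicate 2. Genes of the ATF4 stress response and serine synthesis rose in 12 of 28 cases and fell in 5, and 7 rose without pBIC replicate 2 and 3 fell without YC replicate 2.

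Immediate early and heat shock genes fell in 23 of 27 cases and rose in 0 (median -2.47), with a summed level of 4379 to 4918 CPM in pBIC and 8745 to 19658 CPM in YC. Jund and Junb, subunits of the factor AP-1, stood at 238, 209.6 and 395 and 215, 168 and 284 CPM in pBIC against 1136 to 2682 and 803 to 1843 CPM (-2.64 ± 0.30, adjusted p = 2.41e-05 and -2.47 ± 0.27, adjusted p = 1.53e-05). Dusp2, a phosphatase that ends MAP kinase signals, stood at 30.7, 11.2 and 22.1 CPM against 219, 343, 261 and 248 CPM (-3.65 ± 0.33, adjusted p = 5.17e-06). Hspa1a, an inducible heat shock protein, stood at 0.804, 3.0 and 0.696 CPM against 130.0, 77.4, 14.9 and 80.6 CPM (-5.66 ± 0.79, adjusted p = 1.32e-04, -6.58 without pBIC replicate 2). Hspa8, the constitutive relative, was not called (1423 to 2281 against 1214 to 1577 CPM, 0.39 ± 0.17, adjusted p = 0.0708). Hspa8 rose once pBIC replicate 3 was left out (0.54, adjusted p = 0.0225), whose level was the lowest of the lymphoma libraries. With each lymphoma group summed to 1 library 12 members fell, Hspa1a no longer among them (-5.63), and 14 fell without the expression filter. Replication-dependent histone genes fell in 59 of 61 tested cases (median -3.10, and -3.75 without pBIC replicate 3), and the small RNAs without a poly(A) tail fell in 5 of 5 (median -4.04), 3 of them when each lymphoma group was summed.

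Receptors that place B cells in the spleen were mostly lower or not called. Of 23 chemokine and egress receptors 12 fell and 2 rose (median -0.71). Cxcr4, which draws cells to the dark zone, stood at 86.8, 34.9 and 98.6 CPM against 259, 390.0, 316 and 248 CPM (-2.05 ± 0.36, adjusted p = 6.56e-04). Gpr183, which draws them to the outer follicle, fell 3.8-fold. The integrin chains were opposed: Itgb2, of LFA-1, fell 4.28-fold and Itgb1, of VLA-4, rose to 398, 257 and 393 CPM from 114, 97.9, 120.0 and 112 CPM (1.66 ± 0.25, adjusted p = 1.67e-04). Of 27 tested cytokines and chemokines 6 rose and 11 fell. Tnfsf13b, which encodes the B cell survival factor BAFF, stood at 10.2, 4.35 and 13.4 CPM against 0.445, 0.246, 0.283 and 0.927 CPM (4.26 ± 0.53, adjusted p = 3.49e-05). Csf1, the growth factor of macrophages, stood at 58.4, 15.9 and 35 CPM against 2.52, 3.77, 5.09 and 5.56 CPM (3.10 ± 0.41, adjusted p = 8.44e-05). Il15, a growth factor of NK and memory T cells, rose 4.47-fold. Tgfb1 fell 2.56-fold, and Il12a, a subunit of interleukin 12, stood at 1.5, 0.17 and 0.107 CPM against 6.23, 9.34, 13.9 and 14.5 CPM (-4.19 ± 0.69, adjusted p = 4.10e-04, -6.25 without pBIC replicate 1). Ifng was low in both groups, at 0.75, 1.92 and 0.375 CPM in pBIC and 6.15, 3.36, 1.2 and 6.63 CPM in YC (-2.09 ± 0.69, adjusted p = 0.0215). Ifng was not called without pBIC replicate 1 or 3 or YC replicate 1 or 4 (-1.92 to -1.70, adjusted p = 0.0516 to 0.0710), nor when each lymphoma group was summed (-2.06), and its groups overlapped. Il10 was not called (19.4, 6.84 and 8.78 CPM against 4.23, 7.45, 7.14 and 9.98 CPM, 0.70 ± 0.41, adjusted p = 0.171). Ccl19, a chemokine of lymph node stroma, stood at 3.65, 4.13 and 17.9 CPM in pBIC and had 2 counts in YC, a ratio of 233 (95% counting interval 64.1 to 1929). Without pBIC replicate 3 the ratio of Ccl19 was 104, and without YC replicate 2, which held both counts, Ccl19 was at least 120.1-fold higher. Madcam1, an addressin of vessels and stroma, stood at 30.0, 87.8 and 25 CPM against 0.0741, 0.491, 1.06 and 0.214 CPM (6.66 ± 0.82, adjusted p = 5.72e-05, 5.93 without pBIC replicate 2 and 7.50 without YC replicate 3). Of 18 stromal and endothelial markers counted, 7 were tested, these 2 rising and 4 falling, and Col3a1, Pdgfra, Pdpn, Dcn, Lum and Emcn had no count in pBIC.

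Among receptors for cytokines and their STAT factors 19 of 37 fell and 7 rose (median -0.67), with 4 rising without pBIC replicate 3. Il12rb1, a chain of the interleukin 12 and 23 receptors, stood at 144, 139 and 94 CPM against 9.42, 15.2, 15.8 and 20.6 CPM (3.04 ± 0.24, adjusted p = 1.42e-06), and Il6ra rose 2.4-fold. Il4ra, the interleukin 4 receptor, stood at 68.1, 67 and 70.4 CPM against 279, 314, 258 and 254 CPM (-2.01 ± 0.25, adjusted p = 3.76e-05). Jak1, a kinase shared by many receptors, fell 3.19-fold. Checkpoint and costimulation genes were split, 9 of 33 higher and 12 lower (27.3% and 36.4%, beside 26.4% and 27.7% of all genes tested). Lag3 and Pdcd1, inhibitory receptors better known from exhausted T cells, were higher in pBIC although T cell markers were lower: Lag3 stood at 50.3, 20.4 and 10.9 CPM against 4.37, 2.46, 2.62 and 4.56 CPM (2.95 ± 0.44, adjusted p = 1.49e-04, 2.15 without pBIC replicate 1) and Pdcd1 at 8.52, 17.6 and 4.87 CPM against 3.71, 1.47, 1.13 and 1.21 CPM (2.45 ± 0.51, adjusted p = 0.00136). Icosl, the ligand by which B cells engage T helper cells, stood at 9.81, 2.94 and 25.2 CPM against 140.1, 166, 117 and 101 CPM (-3.37 ± 0.54, adjusted p = 3.56e-04, -4.35 without pBIC replicate 3), and Cd24a fell 9.04-fold. Toll-like receptor genes held 7 of 24 higher and 6 lower, led by Tlr7, the sensor of single-stranded RNA, at 277, 232 and 124 CPM against 15.5, 29.6, 14.9 and 18.2 CPM (3.43 ± 0.37, adjusted p = 2.34e-05), while Tlr9, the sensor of DNA, overlapped and was not called (41.9 to 137 against 38.1 to 87.5 CPM, 0.33 ± 0.43, adjusted p = 0.53), and had the opposite sign without pBIC replicate 1 (-0.37). Notch pathway genes fell in 12 of 21 cases and rose in 3. The receptor Notch2 and the DNA-binding factor Rbpj rose 2.02-fold and 2.43-fold, and the targets Hes1 and Dtx1 fell to 3.48, 1.64 and 0.91 CPM from 23.8, 47.4, 25.8 and 20.8 CPM (-3.87 ± 0.46, adjusted p = 3.17e-05, -4.53 without pBIC replicate 1) and to 76.4, 24.7 and 36.5 CPM from 308, 275, 252 and 215 CPM (-2.52 ± 0.40, adjusted p = 3.46e-04, -3.10 without pBIC replicate 1). Of 35 chromatin modifiers and lymphoma suppressors 20 fell and 6 rose, and 3 rose without YC replicate 4. Hdac7, a histone deacetylase of B cells, stood at 29.2, 7.35 and 15.3 CPM against 301, 381, 391 and 345 CPM (-4.36 ± 0.40, adjusted p = 6.89e-06, -4.97 without pBIC replicate 1), while Dnmt3a, a DNA methyltransferase, stood at 251, 163 and 172 CPM against 39.7, 57.4, 47.5 and 55.8 CPM (1.96 ± 0.20, adjusted p = 7.53e-06).

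The other cell types of the spleen were read by their markers. T cell markers fell in 21 of 23 cases and rose in 0, NK cell markers fell in 10 of 13, and myeloid markers fell in 19 of 25 and rose in 2. The summed level of all 28 myeloid markers overlapped between groups, at 475 to 607 CPM in pBIC and 440.0 to 688 CPM in YC. Most of the pBIC sum came from Mpeg1 and Cd68, the markers that rose. The T cell receptor chain Trac stood at 3.11, 6.22 and 5.14 CPM against 92, 45.2, 30.7 and 73.3 CPM (-3.64 ± 0.50, adjusted p = 1.25e-04). Of the myeloid markers that rose, Mpeg1, a pore-forming protein also made by activated B cells, stood at 336, 302 and 287 CPM against 87.1, 59.9, 49.2 and 67.6 CPM (2.23 ± 0.19, adjusted p = 2.34e-06). Cd68, a lysosomal protein, stood at 115, 100.3 and 117 CPM against 30.5, 26.8, 32.8 and 31.9 CPM (1.86 ± 0.19, adjusted p = 8.32e-06), while Csf1r, the receptor of macrophages, fell to 2.14, 2.83 and 1.66 CPM from 29.3, 26.4, 22.9 and 22.7 CPM. Erythroid and platelet markers fell in 4 of 18 cases and rose in 1, and 2 fell without YC replicate 1, 2 or 4.

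No chromosome stood far from the others. Over genes of at least 5 CPM, without antibody and T cell receptor genes, the median log2 fold change per chromosome lay between -0.16 (chromosome 17, 638 genes) and 0.35 (chromosome 18, 307 genes), with chromosome names from RefSeq matched by symbol. On every chromosome at least 17.9% of these genes fell and at least 24% rose.

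**Figure D5:**
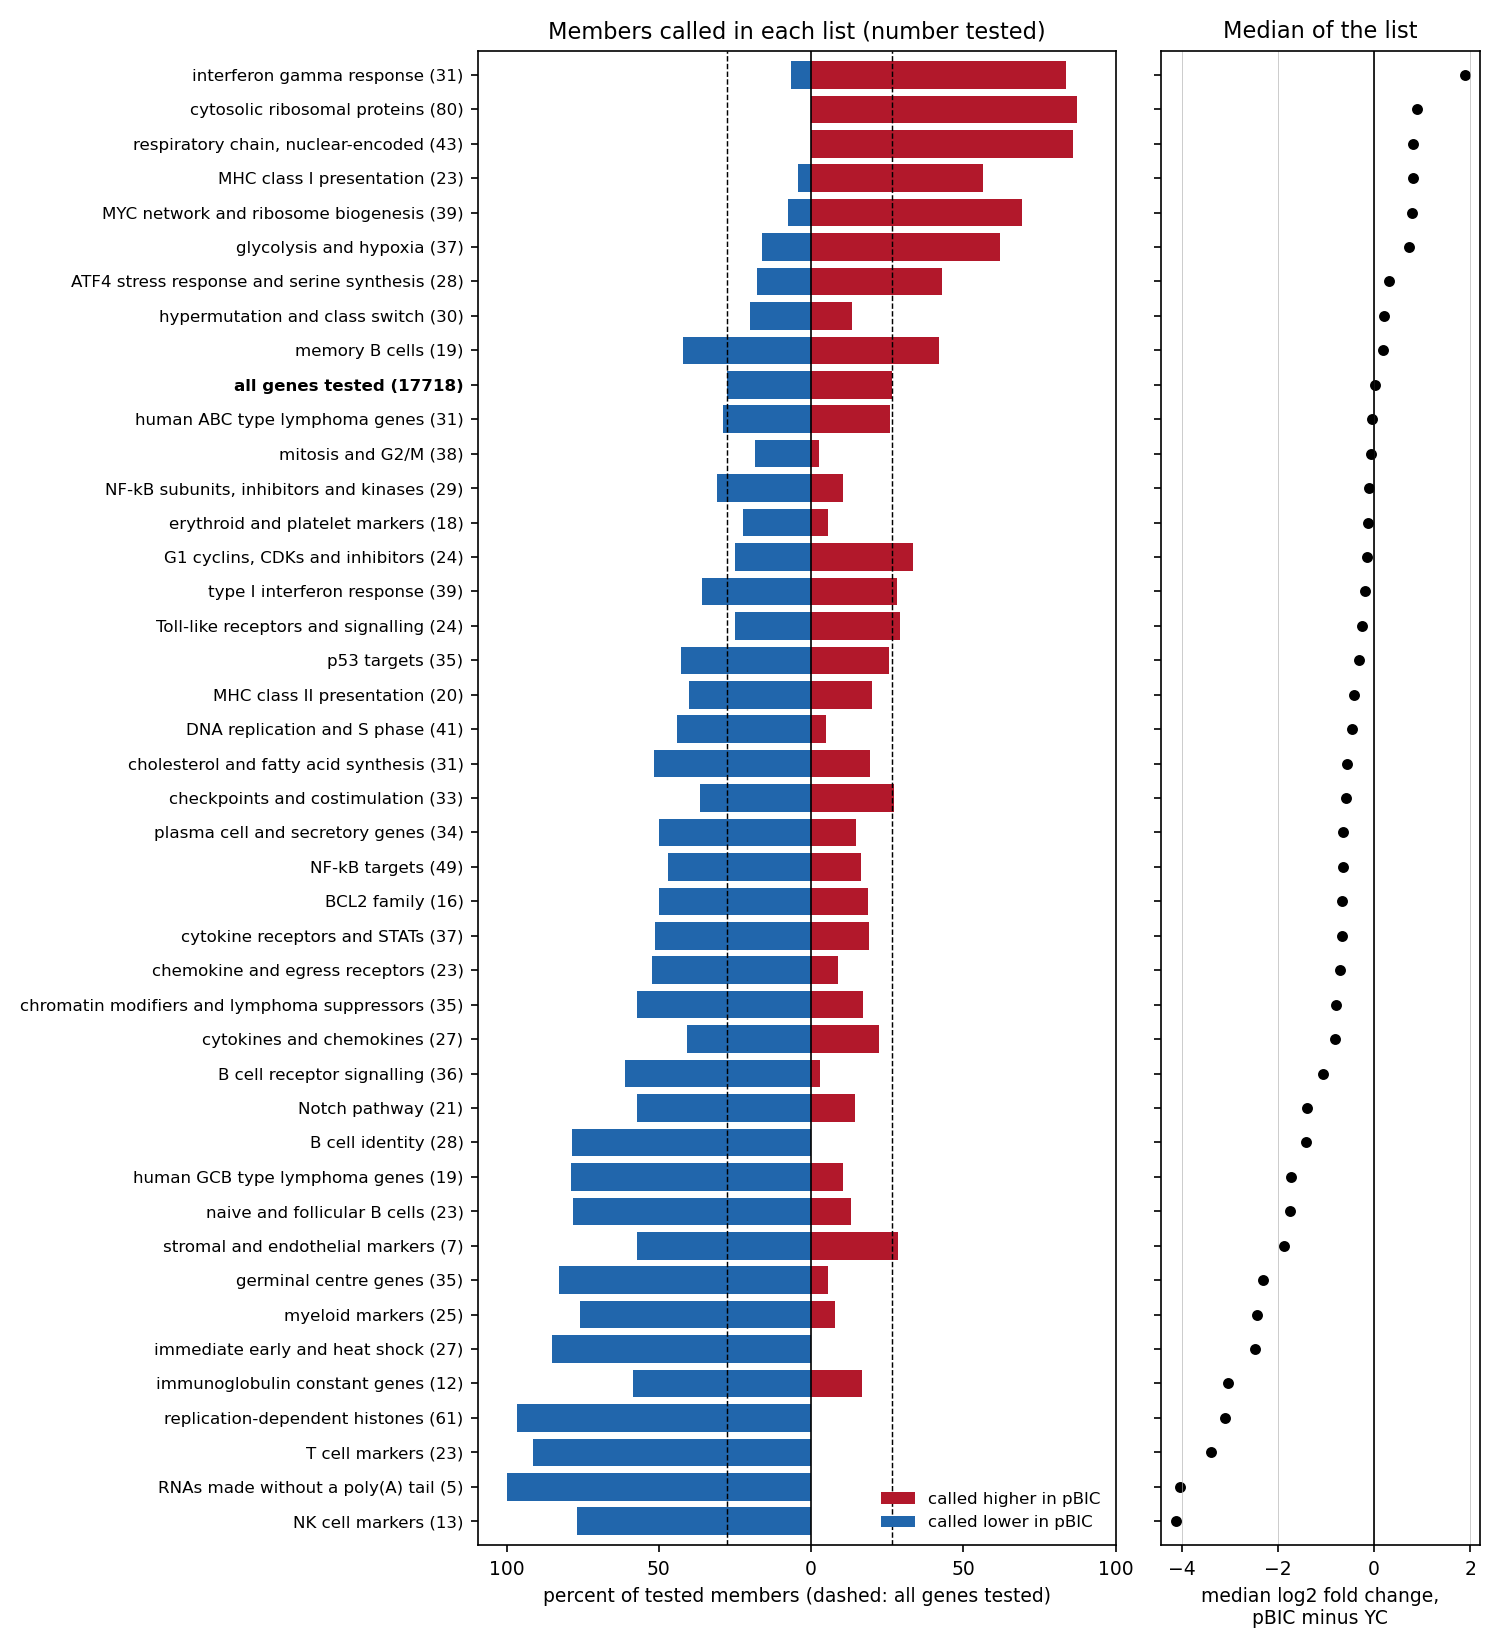
Left, percent of the tested members of each list called higher (red, right) or lower (blue, left) in pBIC, with dashed lines at the shares of all genes tested (26.4% and 27.7%) and the number of members tested in brackets. Right, median log2 fold change of the same members, from interferon gamma response genes at 1.90 to NK cell markers at -4.13.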

How the data were processed

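The deposited table holds raw read counts per gene for all 10 libraries, made by the authors with featureCounts after FastQC on the genome build GRCm39, per the submitters' processing notes. The aligner is not given in the sources used here, nor whether counting used strand, so overlapping and antisense genes cannot be told apart. The libraries were read by single-end sequencing of oligo-dT selected RNA, per the labels' protocols. The pBIC and YC libraries were taken over from an earlier series, per the labels. Columns were assigned to samples by the names in their labels.

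Counts were tested with edgeR 4.0.16 (R 4.3.3): filterByExpr by group, TMM scaling, a robust quasi-likelihood fit with 1 coefficient per group, and the F test of pBIC minus YC with Benjamini-Hochberg adjustment over 17718 genes. The 3 libraries of the remaining group, pBIC with a deletion of Il10, entered only to share the estimate of the spread (biological coefficient of variation 0.289). Calls were made at an adjusted p under 0.05. Errors beside log2 fold changes are standard errors, levels are TMM-scaled CPM, and intervals and limits cover counting error only. The fit was also run on simulated counts with few planted changes and the same dispersion for all genes. That setting cannot check scaling or false calls where so many genes change.

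The comparison and the gene lists were chosen with earlier results of these data known. Named were the genes of the alleles, up to 15 called genes of at least 5 CPM without overlap in each direction by fold change and by adjusted p, up to 6 called members of a list in each direction, members not called or against their list, and immunoglobulin constant genes. H2-Ab1, Ifng, Igtp, Irf1, Irgm1, Isg15, Jchain, Mdm2, Pax5, Rmrp, Rpph1, Spi1, Syk, Tcf7, Trac and Xbp1 fall outside this rule and were chosen after their values were seen, and some genes that meet it are not reported here. The lists of histone genes and of RNAs without a poly(A) tail, the views by transcript length and base content and the counting ratios with 1 library left out were added after seeing the data. Promoters came from RefSeq on GRCm38.p6 and chromosome names from RefSeq by gene symbol. Transcript lengths and base content were those of the longest GENCODE transcript of each gene symbol. Of 12184 genes of at least 5 CPM, without antibody and T cell receptor genes, 11556 matched (94.8%). Alternatives were RLE, upper quartile and total scaling, DESeq2 1.42.0, limma-voom 3.58.1, other filters, sex, other sample sets and leaving out each library.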

Additional observations from a re-analysis of the deposited data

Results flagged for a closer look

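In 15 of 224 values tested, 1 YC library lay far from the other 3 by Dixon's criterion for 4 values, which chance alone meets in about 1 in 20 groups. YC replicate 1 was highest in Ets1 (590.4 CPM, the others 388 to 409), Pdcd1 (3.71 CPM, the others 1.13 to 1.47) and Zmat3 (12.8 CPM, the others 10.8 to 10.9) and lowest in Pdk1 (28.2 CPM, the others 31.3 to 31.9). YC replicate 2 was highest in Ifngr2 (63.1 CPM, the others 46.5 to 48.3), Nfkb2 (337 CPM, the others 244 to 248), Iglc1 (414 CPM, the others 178 to 206) and Ccl19 (0.164 CPM, the others at 0). YC replicate 3, from the male mouse, was highest in Cr2 (200.5 CPM, the others 175 to 178) and Neil1 (558 CPM, the others 383 to 395). It was lowest in Ahcyl2 (32.4 CPM, the others 43.1 to 45.1), Irf1 (100.4 CPM, the others 125 to 129) and Fzd6 (0 CPM, the others 0.0713 to 0.0819, each 1 count). YC replicate 4 was highest in Ebf3 (0.713 CPM, the others 0 to 0.0741). The summed level of erythroid and platelet markers was highest in YC replicate 4 (699 CPM, the others 314 to 357).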

How the results depend on the processing

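Of the 4682 genes higher in pBIC, 2506 were also beyond a 1.5-fold change by edgeR's glmTreat, and 3448 of the 4903 lower ones. At an adjusted p under 0.01, 3295 genes were higher and 3627 lower. Across the other alternatives, before leaving out libraries, 4284 to 4905 genes were called higher and 3950 to 5725 lower, and leaving out 1 library gave 3962 to 4709 and 4303 to 5166. Of 211 named genes, 182 kept their direction and call under every alternative. Genes not called that changed sign were Irf8 (0.028 without a filter, 0.019 with lymphoma groups summed, -0.31 to 0.29 leaving out 1 library), Ighg3 (-0.20 in females only, -0.22 to 0.69), Iglc1 (-0.11 to 0.54), H2-D1 (-0.15 to 0.012) and Tlr9 (-0.37 to 0.69). Calls of Birc3, Cd274, Chuk, Foxp1, H2-Ab1, H2-M3, Ifngr2, Ighe, Iglc2, Irf4, Sec61a1, Ssr4 and Zmat3 ended under the 1.5-fold test, and those of Birc3, Cd274, Cdkn1a, Ifng, Ifngr2, Ighe and Prdm1 at an adjusted p under 0.01. Ighe was also not called with DESeq2, females only, no filter or 7 libraries, Cd274 not without a filter, and Ifngr2 not in females only, while Cd74 was called with 7 libraries (-0.41). Under the 1.5-fold test 43 ribosomal protein, 16 respiratory chain, 14 glycolysis, 14 biogenesis, 7 ATF4 response, 5 G1 and 5 checkpoint genes rose, and with them 4 p53 targets, 4 NF-kB targets, 3 ABC, 3 cholesterol synthesis, 3 chromatin, 2 hypermutation, 2 cytokine receptor, 1 class II and 0 plasma cell genes. Under it 13 chromatin, 8 replication, 7 chemokine receptor, 5 cholesterol synthesis, 5 ABC and 3 hypermutation genes fell. At an adjusted p under 0.01, 7 type I interferon, 6 ATF4 response, 5 checkpoint, 4 ABC, 3 NF-kB target, 3 chromatin, 3 cytokine receptor and 2 plasma cell genes rose, and 9 cholesterol synthesis, 7 checkpoint, 7 chemokine receptor and 2 Toll-like receptor genes fell. With lymphoma groups summed 3 Toll-like receptor genes fell, with sex as a covariate 5 ABC and 3 chromatin genes rose, and with RLE scaling 3 chromatin genes rose. Counts of at most 3 members moved by over 1.5 times without 1 library in 10 lists. The median of NF-kB subunits, -0.09, was 0.05 without pBIC replicate 2, and that of mitosis genes, -0.05, was 0.01 without pBIC replicate 3. The ABC median was 0.02 without a filter and 0.01 with lymphoma groups summed. The median of chromosome 17 was -0.18 to -0.11 leaving out 1 library and -0.24 in pBIC replicate 3 alone, and that of chromosome 18 was 0.30 to 0.35 and, in pBIC replicates 1, 2 and 3 alone, 0.24, 0.31 and 0.26. As a share of all immunoglobulin counts, Ighv8-11 averaged 2.33% in place of 56.3% and Igkv6-17 11.1% in place of 75.8%, by the wider denominator. The causes of the other changes were not tested. Genes under 3 counts in a library could not be measured there. No paired analysis was possible because the labels give pBIC and YC no shared replicate numbers.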
